A study of Mus musculus with 6 samples.

Results

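Megakaryocytes are the large bone marrow cells that shed platelets, and 10 genes that mark this lineage were followed here in mouse leukaemia cells: Pf4, Ppbp, Itga2b, Gp9, Gp1ba, Gp1bb, Gp6, Vwf, Treml1 and Nfe2. They were chosen by name, as textbook markers of megakaryocytes and platelets, and are 10 of the 53458 genes quantified. Of the 22170 genes with enough reads to be tested, 9 were members, and Gp1bb did not pass the filter on low counts. The study asked how loss of Tet2, an enzyme that oxidizes methylated cytosine, alters leukaemia with mutated Cebpa, a transcription factor of the granulocyte lineage. RNA was sequenced from 3 Cebpa-/p30 Tet2+/+ mice (mice 19, 23 and 24) and 3 Cebpa-/p30 Tet2-/- mice (mice 5, 7 and 8), with 1 library per mouse. Cells of all 6 mice kept only the allele that makes the short p30 form of C/EBPα, so no mouse with normal Cebpa entered the comparison. The donor marrow was labelled C57BL/6 (C57BL/6J in the study's methods) and carried Cebpa fl/p30, Mx1-Cre and either Tet2 +/+ or Tet2 fl/fl. Mx1-Cre follows an interferon-responsive promoter, is not restricted to the megakaryocyte or myeloid lineage, and was switched on with poly(I:C) in the recipients, young adult females that had been lethally irradiated before the transplant. Blasts came from the marrow of moribund recipients and had been frozen, thawed and sorted as DAPI-, CD45.2+, CD3-, B220- and Ter119- cells. The gate did not use CD41, the protein made from Itga2b, so it neither selected nor removed the megakaryocyte lineage by that marker.

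A megakaryocyte matures under GATA-1, its cofactor FOG-1, FLI1, RUNX1 and NF-E2, becomes polyploid, fills with granules and extends the processes from which platelets are released. Platelets stick to damaged vessels through the GPIb-IX-V complex, which binds von Willebrand factor, respond to collagen through glycoprotein VI, and aggregate through the integrin αIIbβ3, which binds fibrinogen. Their α-granules hold the chemokines PF4 and PPBP. In marrow, several of these genes are not restricted to the lineage: Itga2b is also active in early progenitors and mast cells, Vwf in endothelium, and Nfe2 in erythroid, mast and other myeloid cells.

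The promoters of 3 members are shown because GATA, ETS and NF-E2 factors direct the lineage, and the levels of several such factors are given below beside those of the members. Each window runs from 250 bases before to 50 bases after the RefSeq start (GRCm38.p6) and is written 5′ to 3′ on the strand of the gene. Capitals mark the letters of the GATA motif, which were searched as AGATAA and also as the spelling TGATAA, and of the ETS core, which was searched as GGAAG, and the reverse complements of each. The window of Itga2b lies at chr11:102469834-102470133 on the minus strand, that of Gp1ba at chr11:70638872-70639171 on the plus strand and that of Pf4 at chr5:90772185-90772484 on the plus strand.
Itga2b: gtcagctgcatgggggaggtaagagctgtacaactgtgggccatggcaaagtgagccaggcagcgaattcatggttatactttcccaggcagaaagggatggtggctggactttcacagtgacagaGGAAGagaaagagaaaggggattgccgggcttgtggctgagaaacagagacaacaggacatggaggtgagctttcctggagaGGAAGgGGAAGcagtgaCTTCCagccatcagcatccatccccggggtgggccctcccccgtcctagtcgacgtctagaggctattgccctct
Gp1ba: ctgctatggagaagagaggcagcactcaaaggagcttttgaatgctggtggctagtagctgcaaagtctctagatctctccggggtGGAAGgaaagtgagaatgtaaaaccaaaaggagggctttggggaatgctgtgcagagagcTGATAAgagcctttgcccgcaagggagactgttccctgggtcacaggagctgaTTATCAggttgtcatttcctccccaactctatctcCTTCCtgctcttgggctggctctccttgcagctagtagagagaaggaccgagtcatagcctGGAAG
Pf4: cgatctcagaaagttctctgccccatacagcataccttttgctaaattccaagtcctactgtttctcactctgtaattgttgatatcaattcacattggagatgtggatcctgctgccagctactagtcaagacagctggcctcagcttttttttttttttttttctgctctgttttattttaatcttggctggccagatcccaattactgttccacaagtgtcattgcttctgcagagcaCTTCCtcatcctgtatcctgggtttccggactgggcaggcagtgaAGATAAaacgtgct
The window of Itga2b held GGAAG 4 times, on either strand, and neither spelling of the GATA motif. That of Gp1ba held the TGATAA spelling 2 times, once on each strand, and the ETS core 3 times, and that of Pf4 held AGATAA after the start site and the ETS core just before it. Windows were available for 8 of the 10 members, all but Vwf and Nfe2. The searched spellings of the GATA motif occurred in 3 of the 8, in Gp1ba, Gp6 and Pf4, against 18.6% of all 32851 promoter windows of the same length. Other spellings of it were not searched. GGAAG occurred in 8 of 8, against 71.4% of all windows. The core shared by NF-E2 and AP-1 sites, TGAGTCA on either strand, occurred in 0 of 8, against 5.20% of all windows. A match to these letters is a description of the sequence and not evidence of binding.

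The libraries held between 13036643 and 32855343 estimated reads, the largest in mouse 5. Tet2 itself, summed over the whole gene, was at 73.6, 79.5 and 98.4 CPM (counts scaled to a library of 1e+06 reads after TMM normalization) in the Tet2+/+ mice and at 111, 79.4 and 96.7 CPM in the Tet2-/- mice, a log2 fold change of 0.19 ± 0.19 (SE, edgeR, adjusted p = 0.842). The position of the loxP sites was not given in the sources used here, so this sum does not check the deletion. All fold changes are Tet2-/- over Tet2+/+. The labelled identity was checked on myeloid genes: Mpo, the granule peroxidase of myeloid precursors, lay between 2662 and 4527 CPM, and Itgam (CD11b) between 765 and 3134 CPM. Ptprc, which encodes CD45, lay between 762 and 1221 CPM, while Cd3d and Cd3g, T cell genes that the gate removes, were at most at 8.36 CPM.

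Nfe2 and Itga2b were far above the other members. Nfe2, Itga2b, Gp1ba and Vwf reached 1 CPM in every mouse, 4 of 10, while 53.3% of the tested genes did. Ppbp, Gp1bb and Gp6 stayed below 1 CPM in every mouse, 3 of 10, against 29.7% of the tested genes, so these shares do not set the members apart. Per length, Nfe2 had a mean of 158 TPM (read counts scaled for transcript length and depth; 112 to 242 over the 6 mice) and Itga2b 11.3 TPM (2.73 to 23.4). They were followed by Pf4 at 1.77, Gp9 at 1.29, Vwf at 0.534, Gp1ba at 0.413, Treml1 at 0.251, Ppbp at 0.203, Gp6 at 0.0359 and Gp1bb at 0.0186 TPM. Nfe2 exceeded Itga2b in 6 of 6 mice and Itga2b exceeded Pf4 in 5 of 6. Below that the order was not stable between mice, since each neighbour was above the next in only 3 to 5 mice. In mean CPM, Nfe2 stood at the 97.5th and Itga2b at the 69.6th percentile of the tested genes, and the other 7 tested members between the 19.4th and the 46.2nd.

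**Figure D1:**
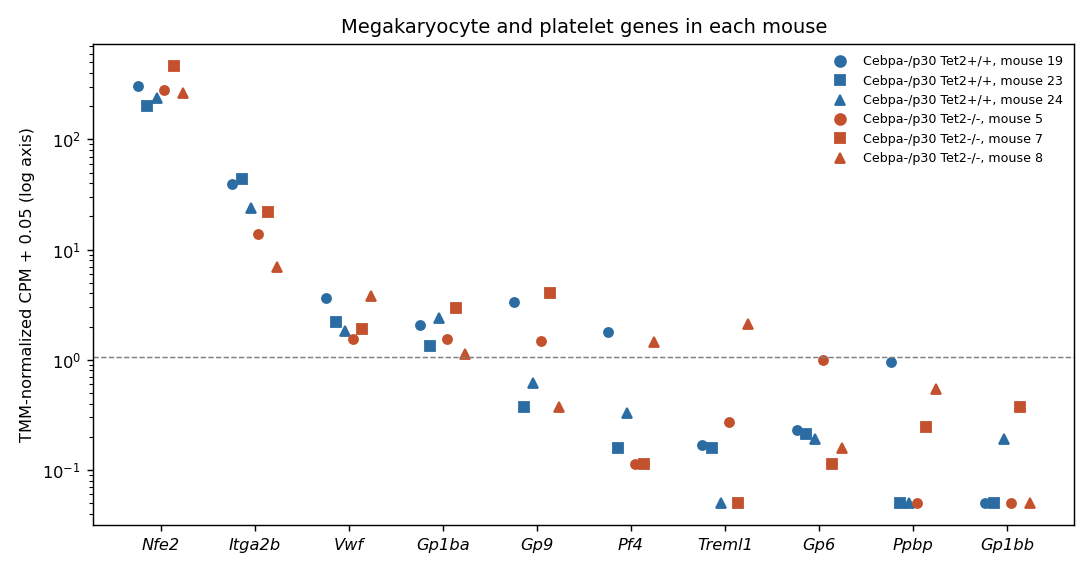
Level of each of the 10 genes in each mouse, in TMM-normalized CPM with 0.05 added so that 0 can be drawn on the log axis. Blue symbols are Tet2+/+ mice and orange symbols Tet2-/- mice (shapes tell mice apart and pair nothing), and the dashed line marks 1 CPM. Nfe2, Itga2b, Gp1ba and Vwf lie above it in every mouse, and Itga2b is the only gene whose colours do not overlap.

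The comparison of genotypes gave no member at an adjusted p under 0.05, lower or higher. Over all tested genes that rule called 0.0451% lower and 0.0% higher, so it left little room for any short list (10 genes lower and 0 higher in edgeR, with 664 higher at an unadjusted p under 0.05). At an unadjusted p under 0.05, 1 of the 9 tested members was lower, Itga2b, and 0 were higher, against 5.12% and 3.0% of all genes, and with 9 genes a single call is close to that background. Itga2b was also the only member whose genotypes did not overlap, which 7.94% of all genes did in the lower and 6.41% in the higher direction. The median log2 fold change of the 9 tested members was -0.05, against 0.0016 over all genes, with 5 below and 4 above 0. The lineage markers therefore gave no common direction, and the 10 genes are described below by what their proteins do.

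Among the surface receptors, Itga2b (ENSMUSG00000034664, chr11:102453297-102470122, minus strand) encodes αIIb, also called CD41. It was at 39.5, 43.8 and 23.7 CPM in Tet2+/+ mice 19, 23 and 24 and at 13.7, 21.7 and 6.95 CPM in Tet2-/- mice 5, 7 and 8. Every Tet2-/- mouse was below every Tet2+/+ mouse, although mouse 24 and mouse 7 differed by less than either genotype's own spread. The means were 35.7 ± 10.6 and 14.1 ± 7.40 CPM (SD, n = 3 each), a level 2.52-fold lower in Tet2-/- mice. The log2 fold change was -1.34 ± 0.43 (SE), with an unadjusted p of 0.0175 and an adjusted p of 0.541 in edgeR's quasi-likelihood test. The exact two-sided permutation test over the 6 mice gave p = 0.1, the smallest that 3 against 3 mice can give. DESeq2 on the same counts gave an adjusted p of 0.164 for Itga2b, in a fit that called 1.48% of genes lower and 0.269% higher. Without mouse 23 or without mouse 5 the unadjusted p was no longer under 0.05, and the log2 fold change without a mouse ran from -1.78 to -1.01. In bulk RNA, fewer cells of a type and less RNA per cell cannot be told apart.

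The reads of Itga2b came mainly from its full-length model. Itga2b-201, 3437 bases long, took between 80.9% and 87.3% of them in every mouse. Its own TPM was 4.79, 5.68 and 3.13 in the Tet2+/+ mice and 1.54, 2.40 and 0.877 in the Tet2-/- mice, which do not overlap either. The gene's summed TPM lies well above these values because short fragments such as Itga2b-208, 268 bases long, turn a few reads into a high TPM, up to 10.6.

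Itgb3 encodes β3, without which αIIb does not reach the cell surface. It was at 83.9, 100.4 and 81.8 CPM in Tet2+/+ mice and at 25.0, 107 and 34.1 CPM in Tet2-/- mice, a log2 fold change of -0.68 ± 0.52 (SE, edgeR, adjusted p = 0.781). Mice 5 and 8 were low and mouse 7 was the highest of all, so the genotypes overlapped. Without a mouse the log2 fold change of Itgb3 ran from -1.59 to -0.33, and the genotypes did not overlap in 1 of 19 alternatives. The ratio of Itga2b to Itgb3 in TPM was 1.88, 2.18 and 1.51 against 2.96, 0.707 and 0.810 (exact two-sided permutation p = 0.7). With Itga2b-201 alone in place of the summed TPM it was 0.598, 0.531 and 0.362 against 0.674, 0.240 and 0.260 (exact two-sided permutation p = 0.6). On either measure the members of the pair did not keep a fixed ratio from mouse to mouse.

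**Figure D2:**
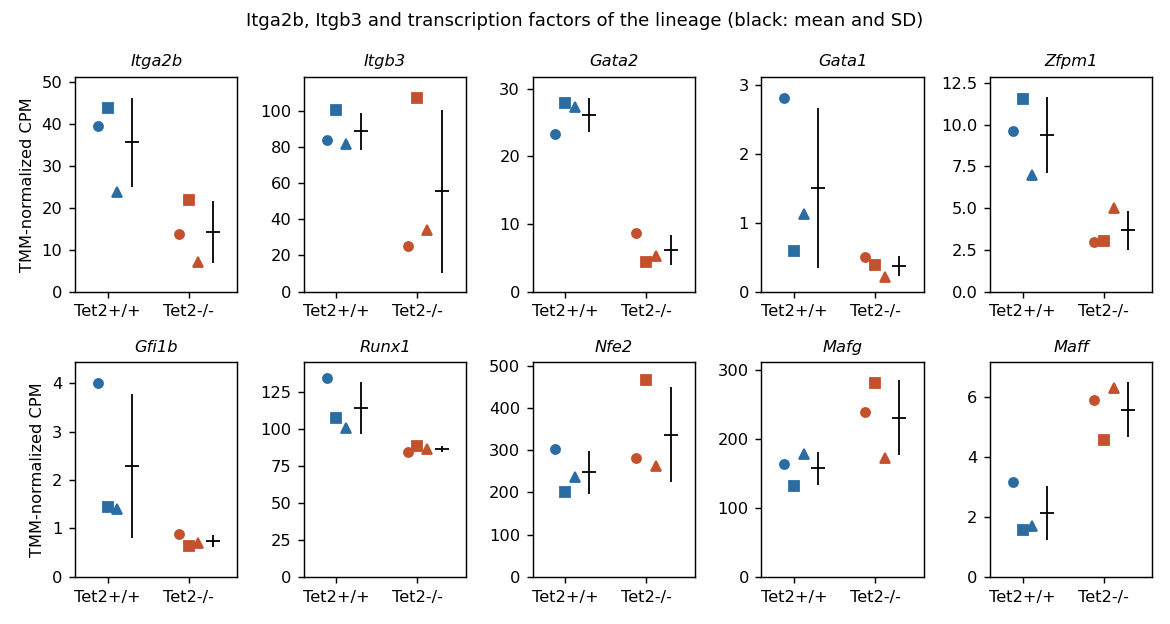
Level in TMM-normalized CPM (vertical axes from 0) of Itga2b, its integrin partner Itgb3 and 8 transcription factors in each mouse, with the mean and SD of the 3 mice per genotype in black. Itga2b, Gata2, Gata1, Zfpm1, Gfi1b and Runx1 are lower in every Tet2-/- mouse than in every Tet2+/+ mouse, Maff is higher in every one, and Itgb3, Nfe2 and Mafg overlap.

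Of the GPIb-IX-V complex, Gp1ba and Gp9 were at a few CPM at most and overlapped between the genotypes. Gp1ba (ENSMUSG00000050675, chr11:70639122-70642036, plus strand), whose product carries the binding site for von Willebrand factor, was at 2.03, 1.28 and 2.32 CPM against 1.49, 2.89 and 1.09 CPM. The log2 fold change was -0.05 ± 0.50 (SE, edgeR, adjusted p = 0.989). Gp9 (ENSMUSG00000030054, chr6:87778072-87779768, plus strand), needed to assemble the complex, was at 3.29, 0.32 and 0.56 CPM against 1.42, 3.99 and 0.33 CPM, from 6 to 62 reads. Mice 19 and 7, of opposite genotypes, were high, and mice 23, 24 and 8 were low, so the log2 fold change of 0.44 ± 1.08 (SE, edgeR, adjusted p = 0.946) was small beside the spread. Gp5, the remaining subunit, was at 1.56 CPM in mouse 19 and at no more than 0.14 CPM in each of the other 5 mice.

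Gp1bb (ENSMUSG00000050761, chr16:18620317-18622403, minus strand), the subunit that is disulfide-linked to GPIbα, had 0, 0 and 2 reads in the Tet2+/+ mice and 0, 5 and 0 reads in the Tet2-/- mice. This level is uncertain, because 91.5% of the 2086 stretches of 31 bases in its transcripts also occur in the overlapping genes Sept5 and Gm49601 on the same strand. Those genes, named here after their values were seen, held 939 to 6237 and 142 to 1081 reads, and how many of these came from Gp1bb could not be told from the deposited estimates. The other 9 members shared at most 1.43% of such stretches with any other gene.

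Gp6 (ENSMUSG00000078810, chr7:4363965-4397744, minus strand), the collagen receptor, had 3, 3 and 2 reads in Tet2+/+ mice and 30, 1 and 2 reads in Tet2-/- mice. The 30 reads of mouse 5 (95% exact Poisson interval 20.2 to 42.8) stood apart from the other 5 mice, and they amount to 0.949 CPM in the deepest library. The log2 fold change was 1.28 ± 1.02 (SE, edgeR, adjusted p = 0.794), and without mouse 5 it was -0.83. In contrast Fcer1g, the signalling chain that GPVI shares with Fc receptors of myeloid and mast cells, was at 298 to 345 CPM in Tet2+/+ and 349 to 463 CPM in Tet2-/- mice, by a margin of a few CPM that was lost with scaling by library size alone (log2 fold change 0.40 ± 0.19, SE, edgeR, adjusted p = 0.646).

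Of the granule proteins, Pf4 (ENSMUSG00000029373, chr5:90772435-90773383, plus strand) had 29, 2 and 4 reads in Tet2+/+ mice and 2, 1 and 26 reads in Tet2-/- mice. Mouse 19 and mouse 8 thus each stood alone in their genotype, and the exact Poisson intervals of mouse 19 (19.4 to 41.6 reads) and mouse 23 (0.242 to 7.22 reads) did not meet. The log2 fold change was -0.49 ± 1.38 (SE, edgeR, adjusted p = 0.957). Ppbp (ENSMUSG00000029372, chr5:90768518-90770063, plus strand), the chemokine gene next to Pf4, had 15, 0 and 0 reads against 0, 3 and 9 reads, so it too was highest in mice 19 and 8. A count of 0 allows up to 3 reads, or 0.161, 0.211 and 0.0949 CPM in mice 23, 24 and 5. Its log2 fold change of -0.48 ± 1.69 (SE, edgeR, adjusted p = 0.967) became 5.12 without mouse 19.

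Treml1 (ENSMUSG00000023993, chr17:48359916-48367176, plus strand), whose product TLT-1 sits in the α-granule membrane, had 2, 2 and 0 reads in Tet2+/+ mice and 7, 0 and 38 reads in Tet2-/- mice. Mouse 8 alone carried the difference, with 2.06 CPM (exact Poisson interval 1.46 to 2.83), while no other mouse exceeded 0.221 CPM. The log2 fold change of 3.16 ± 1.58 (SE, edgeR, unadjusted p = 0.085, adjusted p = 0.660) was the largest of the members, and without mouse 8 the gene did not pass the count filter. Vwf (ENSMUSG00000001930, chr6:125546774-125686679, plus strand), the ligand of GPIbα, was at 3.59, 2.14 and 1.76 CPM against 1.49, 1.86 and 3.74 CPM. Mice 19 and 8 were again highest, and the log2 fold change was -0.08 ± 0.50 (SE, edgeR, adjusted p = 0.982). Its longest model, Vwf-203 of 8834 bases, held between 22.3% and 68.1% of the reads.

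**Figure D3:**
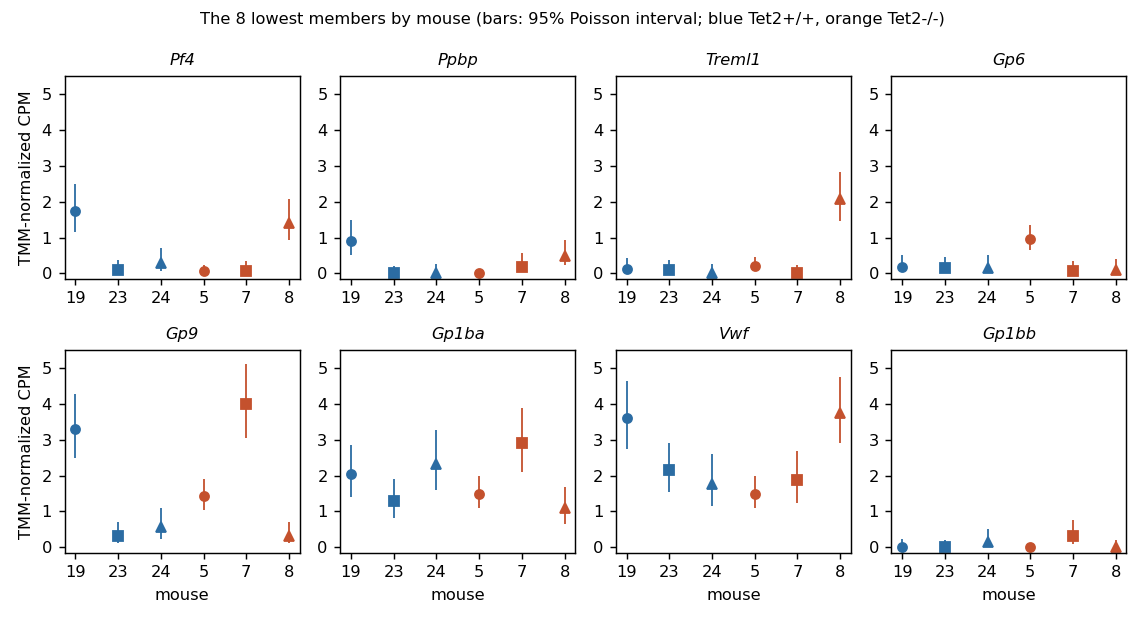
TMM-normalized CPM of the 8 lower members in each mouse, with 95% exact Poisson intervals that cover counting error only. Blue symbols are Tet2+/+ and orange symbols Tet2-/- mice: Pf4, Ppbp and Vwf are highest in mice 19 and 8, Treml1 in mouse 8, Gp6 in mouse 5 and Gp9 in mice 19 and 7.

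The 8 lower members, summed, came to 11.8, 4.12 and 5.21 CPM in the Tet2+/+ mice and 5.63, 9.39 and 9.22 CPM in the Tet2-/- mice, which overlap. Mouse 19, highest in this sum, also stood apart in red cell genes, although Ter119+ cells had been removed. Its 12 listed erythroid genes summed to 149 CPM, against 6.75 to 15.6 CPM in the other mice. The globin genes Hbb-bt and Hbb-bs, close copies between which reads may be divided uncertainly, were at 83.0 and 48.3 CPM there and at most at 9.71 and 5.08 CPM elsewhere. Mouse 8, the other mouse with Pf4, Ppbp and Treml1 reads, was not high in these genes, at 8.46 CPM. The 8 endothelial genes, relevant to Vwf, summed to 4.13, 2.73 and 1.34 CPM in Tet2+/+ mice 19, 23 and 24 and to 1.04, 7.20 and 1.63 CPM in Tet2-/- mice 5, 7 and 8. The sort for CD45.2, a marker of donor blood cells that endothelium lacks, would remove endothelial cells as the Ter119 gate removes red cells. The part of red cell or endothelial RNA in the low members' values was not tested.

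Nfe2 (ENSMUSG00000058794, chr15:103248212-103258403, minus strand) encodes p45, the lineage-restricted subunit of NF-E2 and the factor required for platelet release. It was at 303, 202 and 238 CPM in Tet2+/+ mice and at 281, 466 and 263 CPM in Tet2-/- mice. Mouse 7 was above all others and the remaining 5 mice intermixed. The means were 248 ± 51.4 and 337 ± 112 CPM (SD, n = 3 each), with a log2 fold change of 0.44 ± 0.28 (SE, edgeR, adjusted p = 0.734). Nfe2-201 took 66.1% to 72.8% of the reads. Tubb1, the β1-tubulin of platelets and a known target of NF-E2, was at 0.127 to 0.479 CPM over the same 6 libraries.

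p45 binds DNA only together with a small MAF protein. Mafg was at 164, 132 and 178 CPM in Tet2+/+ mice and 240, 281 and 173 CPM in Tet2-/- mice, overlapping in mouse 8 (log2 fold change 0.55 ± 0.23, SE, edgeR, unadjusted p = 0.0478, adjusted p = 0.609). Maff was far lower, at 3.17, 1.55 and 1.69 CPM against 5.88, 4.57 and 6.29 CPM, without overlap (log2 fold change 1.38 ± 0.40, SE, edgeR, adjusted p = 0.491). Summed per length, the small MAF genes reached 41.7, 37.2 and 43.5 TPM against 53.8, 67.6 and 43.8 TPM, every Tet2-/- mouse above every Tet2+/+ mouse but mouse 8 only just (exact two-sided permutation p = 0.1). Nfe2 exceeded this sum in TPM in all 6 mice.

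Of the 11 listed transcription factors of the lineage, all tested, 5 were lower and 2 higher in Tet2-/- mice at an unadjusted p under 0.05, against 5.12% and 3.0% of all genes, and 0 passed the adjusted threshold in edgeR. Gata2, which keeps progenitors and mast cells and yields to Gata1 as megakaryocytes mature, was at 23.3, 27.9 and 27.3 CPM in Tet2+/+ mice and 8.60, 4.44 and 5.21 CPM in Tet2-/- mice. The genotypes lay far apart beside their spread, with a log2 fold change of -2.10 ± 0.30 (SE, edgeR, adjusted p = 0.117; DESeq2, adjusted p = 5.51e-08). The study had itself reported Gata2 as lower in these blasts, and the list was chosen with earlier results known. The Gata2 call, and its part in the count above, is therefore no independent finding. Zfpm1, which encodes FOG-1, was at 9.63, 11.5 and 6.97 CPM against 2.97, 3.02 and 4.99 CPM (log2 fold change -1.36 ± 0.35, SE, edgeR, adjusted p = 0.419; DESeq2, adjusted p = 0.0162). DESeq2 called 3 of the 11 in all, Gata2 and Zfpm1 lower and Maff higher (adjusted p = 0.0429), against 1.48% of all genes lower and 0.269% higher. On counts scaled by transcript length DESeq2 called Gata2 alone, with adjusted p = 0.277 for Zfpm1 and 0.107 for Maff.

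Gata1 itself was low, from 4 to 47 reads, at 2.81, 0.59 and 1.13 CPM against 0.51, 0.39 and 0.22 CPM (log2 fold change -1.99 ± 0.70, SE, edgeR, adjusted p = 0.581). Gfi1b, a repressor shared by megakaryocytes and red cells, was at 4.01, 1.45 and 1.41 CPM against 0.89, 0.64 and 0.71 CPM (log2 fold change -1.60 ± 0.55, SE, edgeR, adjusted p = 0.568). Mouse 19 was the highest in both, and without it their log2 fold changes were -1.17 and -0.93, no longer under an unadjusted p of 0.05. Runx1, a factor of stem cells and megakaryocytes, was at 134, 107 and 101 CPM against 84.1, 88.2 and 86.5 CPM, a smaller difference without overlap (log2 fold change -0.40 ± 0.16, SE, edgeR, adjusted p = 0.604). Lyl1, relative of the lineage factor Tal1 and the second highest of the list after Mafg, was at 146 to 184 CPM with a log2 fold change of -0.06. On counts scaled by transcript length, 2 of the 11 were lower and 1 higher at an unadjusted p under 0.05. Without mouse 19, mouse 8 or mouse 7 the number lower was 2, 2 and 3.

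Of 14 further receptors, 13 were tested and 0 were lower or higher at an unadjusted p under 0.05, with a median log2 fold change of -0.40. DESeq2 put 1 lower and 2 higher at that threshold, against 5.04% and 3.55% of all genes. The median turned to 0.04 under edgeR's own count filter, 0.25 once genes averaging under 1 TPM were left out, and 0.01 without mouse 5. Besides Fcer1g the highest was Cd9, a tetraspanin of platelets and many other cells, at 25.2 to 222 CPM (log2 fold change 1.01 ± 0.61, SE, edgeR, adjusted p = 0.719). Of 12 granule and secretion genes 11 were tested and 0 passed either threshold in edgeR or DESeq2, with a median of 0.27. Thbs1, the adhesive protein thrombospondin 1, ranged from 87.7 to 1117 CPM between mice (log2 fold change 0.87 ± 0.82, SE, edgeR, adjusted p = 0.828), and Nbeal2, needed for α-granules, from 326 to 730 CPM (0.23 ± 0.34, SE, edgeR, adjusted p = 0.891). Of 8 cytoskeletal and enzyme genes 7 were tested, 0 passed in either tool and the median was 0.25. Myh9, non-muscle myosin, reached 1730 to 5505 CPM and Tln1, talin, 1155 to 1905 CPM, both broadly used in blood cells. In total 45 further genes of the lineage were listed and 42 tested. Among them 8 were lower and 3 higher without overlap, against 7.94% and 6.41% of all genes, and 5 of the 8 and 1 of the 3 were the transcription factors described above. With length-scaled counts 2 factors instead of 5 were lower without overlap. The median of the 42 genes was 0.14, or -0.04 with scaling by library size alone, and 29 of the 45 were at 1 CPM or above in every mouse.

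**Figure D4:**
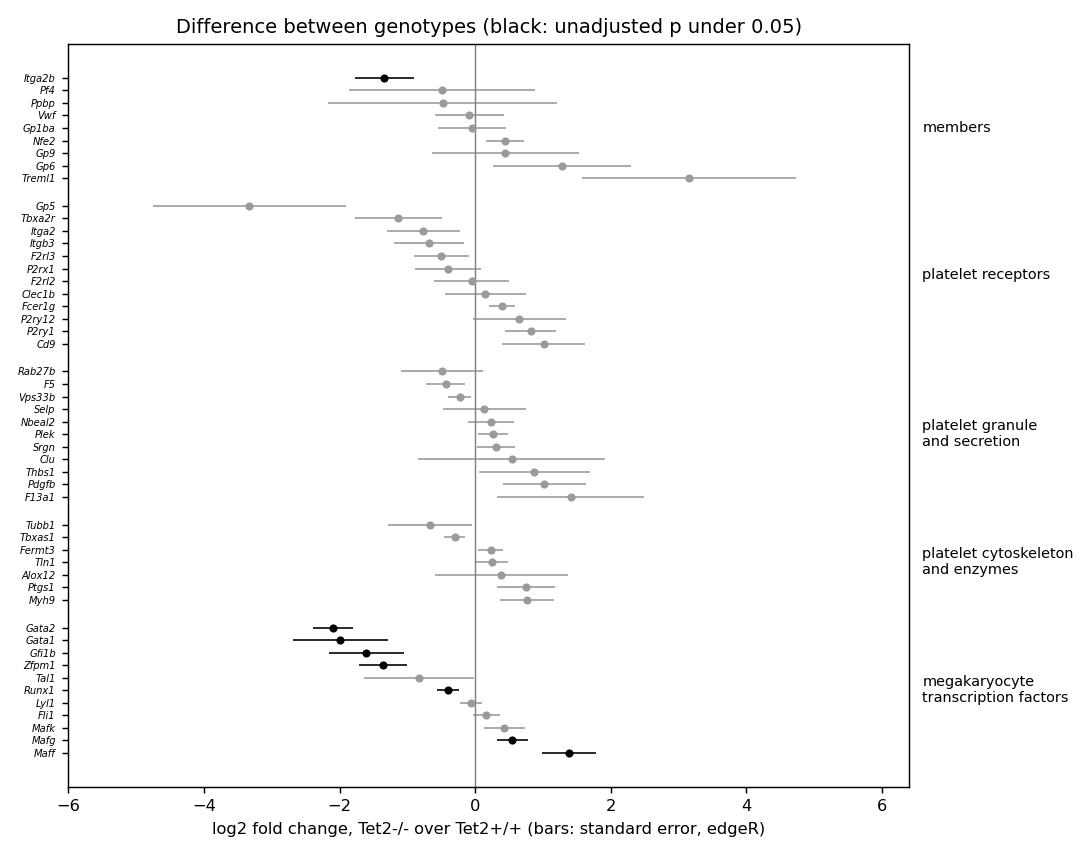
Log2 fold change of Tet2-/- over Tet2+/+ mice (horizontal axis, with standard errors from edgeR) for the 9 tested members and other tested genes of the lineage, by list. Black points have an unadjusted p under 0.05 (Itga2b and 7 transcription factors), grey points do not, and no point has an adjusted p under 0.05.

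Itga2b and Gata2 are also used by mast cells and early progenitors, whose marker genes are given here for the same mice. Of the 10 basophil and mast cell genes 8 were tested, and Cpa3 and Cd200r3 were lower at an unadjusted p under 0.05, a threshold that 5.12% of all genes passed in this direction and 3.0% in the other, here as for the lists that follow. Cpa3, a mast cell protease, was at 263, 362 and 336 CPM in Tet2+/+ mice and 87.7, 47.5 and 16.8 CPM in Tet2-/- mice (log2 fold change -2.66 ± 0.55, SE, edgeR, adjusted p = 0.283; DESeq2, adjusted p = 0.0002). Cd200r3 was at 4.37 to 12.4 CPM against 0.92 to 2.50 CPM (DESeq2, adjusted p = 0.0476). Hdc, which makes histamine, was at 37.7 to 206 against 139 to 300 CPM and overlapped. The list summed to 415 to 507 CPM in Tet2+/+ and 175 to 365 CPM in Tet2-/- mice. Without Cpa3 it summed to 243, 53.9 and 78.7 against 162, 318 and 159 CPM, which overlap. Hdc made up most of that sum in every mouse, so the sum largely repeats the overlap of Hdc. Of the 8 tested genes 6 had a fold change below 0, with a median log2 fold change of -0.61, against 11058 of all 22170 genes. The defining genes Fcer1a and Prss34 were at 0 in 5 and 4 of the 6 mice, while Mcpt8 lay between 3.28 and 16.4 CPM and Ms4a2 between 1.55 and 6.68 CPM.

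Of the 10 stem and progenitor genes 9 were tested and Cd34 was lower, at 170, 310 and 193 CPM against 90.0, 32.1 and 132 CPM (log2 fold change -1.41 ± 0.50, SE, edgeR, adjusted p = 0.582). Kit, the receptor of stem cell factor, was at 90.3 to 141 against 41.7 to 108 CPM and overlapped. The list summed to 278 to 408 CPM in Tet2+/+ and 153 to 179 CPM in Tet2-/- mice. Without Cd34 it summed to 97.8 to 147 against 47.5 to 120 CPM, which overlap. Kit made up most of that sum in every mouse. Mecom, Hlf and Procr stayed below 1 CPM throughout. Of the 9 tested genes 8 had a fold change below 0, with a median log2 fold change of -0.75, against 11058 of all 22170 genes. Ly6a, which encodes Sca-1, was the 1 above 0, at 3.59 to 6.32 CPM against 5.10 to 18.1 CPM (log2 fold change 1.09 ± 0.49, SE, edgeR, adjusted p = 0.634). The part of these cells in the Itga2b and Gata2 values was not tested.

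Of the 12 erythroid genes 11 were tested, and 10 of these had a fold change below 0, with a median log2 fold change of -2.04, against 11058 of all 22170 genes below 0. The list's sum was high in mouse 19 alone. It was 6.75 and 6.90 CPM in the other Tet2+/+ mice and 15.5, 15.6 and 8.46 CPM in the Tet2-/- mice. Whether the direction of the single genes rests on mouse 19 was not tested for the list. Alas2 alone was lower at an unadjusted p under 0.05, from at most 0.359 CPM, and its log2 fold change ran from -2.94 to -2.03 without a mouse. Of the 8 endothelial genes 5 were tested, 1 below and 4 above 0. Plvap was at 0.42 to 3.11 against 0.32 to 0.76 CPM and overlapped (log2 fold change -1.77 ± 0.75, SE, edgeR, unadjusted p = 0.0486, adjusted p = 0.612), an unadjusted p that stayed under 0.05 in 9 of 18 alternatives. Tie1, the second highest, was at 0.109 to 4.63 CPM, Sox17 was at 0 in every mouse and Tek in 5. All 10 monocyte genes were tested and Ly6c2 was higher, at 1049 to 1623 against 2124 to 2993 CPM (log2 fold change 0.89 ± 0.27, SE, edgeR, adjusted p = 0.512; DESeq2, adjusted p = 0.025), while Csf1r overlapped at 87.4 to 749 CPM. All 8 neutrophil genes had a fold change above 0 and none passed, with S100a9 and S100a8 lowest in mouse 23, at 3597 and 2345 CPM, and highest in mouse 7, at 33163 and 22332 CPM. Mouse 7 was also highest in Nfe2, Gp9 and Mafg, and whether its neutrophil genes bear on them was not tested.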

How the data were processed

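RNA of sorted marrow cells was made into TruSeq RNA v2 libraries, which do not keep strand, and sequenced on a NextSeq 500. The authors deposited, per mouse, estimated counts and TPM of 136288 Ensembl transcripts (GRCm38.p6, mm10) from Salmon 0.12.0, per the submitters' processing notes. Each deposited estimated count was summed to its GENCODE M21 gene and rounded, and deposited TPM were summed likewise. 112 transcripts without a gene in that annotation, 0.0307% to 0.0416% of reads per library, were left out. Genes with at least 10 normalized reads over all mice were tested with edgeR 4.0.16 (quasi-likelihood test, TMM factors, Benjamini-Hochberg adjustment over 22170 genes, threshold 0.05), in R 4.3.3. CPM are on the TMM scale. Single values were compared by exact permutation (SciPy 1.17.1), and read intervals are exact Poisson at 95%, two-sided and covering counting error only. The limit given for a count of 0 is 3 reads, a lower, one-sided bound than the interval's upper end.

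Mice are the replicates, no batch is given in the labels, and mouse numbers do not pair the genotypes. The alternatives were DESeq2 1.42.0, length-scaled counts, other filters and scalings, protein-coding transcripts alone, equal depth, limma 3.58.1 on log2(TPM + 1) or log2(TPM + 0.1), and leaving out each mouse. The fits were tested on simulated data. The members and gene lists were chosen with earlier results of these data known. Named genes are all members, Tet2, list genes with an unadjusted p under 0.05 and the 2 highest of each list. Itgb3, Gp5, Tubb1, Ptprc, Mcpt8, Ms4a2, Ly6a and the marker genes near 0 were added after their values were seen. Other list genes are counted without being named. Promoter windows come from RefSeq and were searched on both strands.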

Additional observations from a re-analysis of the deposited data

How the results depend on the processing

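Over the 13 alternatives that kept every mouse, Itga2b stayed lower in every Tet2-/- mouse than in every Tet2+/+ mouse. Leaving out a mouse cannot make the genotypes overlap beyond small changes of scaling, so the other 6 alternatives do not test this. Over all 19, the log2 fold change of Itga2b ran from -1.78 to -1.01, with an adjusted p of 0.059 to 0.934. Its unadjusted p was under 0.05 in 17 of 19, so that the number of members lower at that threshold was 0 to 1 without a mouse. The number higher, 0, was 1 without a filter and 1 without mouse 7, in both cases Treml1. Nfe2 ranged from 0.14 to 0.61 and was never called. No member was called at an adjusted p under 0.05 in any alternative. With log2(TPM + 0.1) Ppbp was at 0.21, and at equal depth Vwf was at 0.000751. Leaving out a mouse moved Pf4 from -3.35 to 1.38, Ppbp from -1.87 to 5.12, Gp9 from -0.62 to 2.10, Gp1ba from -0.54 to 0.21, Gp6 from -0.83 to 1.74 and Vwf from -0.58 to 0.27. Tet2 was at -0.046 with length-scaled counts in edgeR and -0.0491 in DESeq2, and at -0.11 with log2(TPM + 1), with or without a minimum mean of 1 TPM, and with log2(TPM + 0.1). The cause was not tested.

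The number of genes called lower over the whole table was 10. It was 325 with DESeq2 on either kind of count, 5 with length-scaled counts or log2(TPM + 1), 62 without a filter, 1 with protein-coding transcripts and 0 to 7 without a mouse. The number called higher was 0. It was 59 with DESeq2, 64 with DESeq2 on length-scaled counts, 4 without a filter, 1 with edgeR's own filter, RLE factors or equal depth, and 2, 6 and 4 with log2(TPM + 1), log2(TPM + 0.1) and the minimum mean of 1 TPM. Of the transcription factors, the 5 lower at an unadjusted p under 0.05 were 2 with length-scaled counts or any of the 3 limma fits, 3 with DESeq2 on length-scaled counts and 2 to 5 without a mouse. The 2 higher were 1 with length-scaled counts in either tool, edgeR's own filter, library size alone, RLE factors, protein-coding transcripts, equal depth, log2(TPM + 0.1) or the minimum mean of 1 TPM, 0 with log2(TPM + 1) and 1 to 2 without a mouse. Without overlap, the number of receptors lower was 0 to 4 over the alternatives, from 1, and that of transcription factors 2 to 5, from 5. Scaling by library size alone moved the median of all genes to -0.17 and left the sign of every list's median in place except those of the gate genes and of the 42 further lineage genes as 1 list (0.14 to -0.04). No paired analysis was possible because the genotypes share no mouse numbers. At these depths 3 reads stand for 0.0949 to 0.211 CPM in a single mouse, so levels of Ppbp and Treml1 below that were not detectable in the mice without reads.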
